A study of Mus musculus with 17 samples.

Results

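Reporter-positive innate lymphoid cells (ILCs) were compared with reporter-negative ILCs from the skin of mice labelled Gata3flox. The comparison used 6 of the 17 samples of the series, chosen by their labels: 3 bulk RNA-seq libraries of reporter-positive cells (fm_pos_Gata3flox) and 3 of reporter-negative cells (fm_neg_Gata3flox). The mice were C57BL/6 and carried a floxed Gata3 allele together with a fate-map reporter (fm), a mark that a cell and its descendants keep for good once it has been switched on. Both groups carried these alleles, and by the labels they differed in the reporter alone. The labels do not say in which cells Gata3 was deleted, so reporter status and loss of Gata3 cannot be told apart in this comparison. Where a result in the floxed mice is set beside intact mice, the libraries came from mice with the same reporter and no floxed allele (fm_pos, n = 2, and fm_neg, n = 2). The labels give a sort of live skin cells that bore CD90 and neither lineage markers nor the γδ T cell receptor. They do not give the recombinase that acts on the floxed allele, the age of the mice, or whether replicates were separate animals. The p-values therefore measure only the spread between these libraries, which may be technical.

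ILCs are tissue lymphocytes without rearranged antigen receptors, sorted into classes by the cytokines they make and the transcription factors they need. ILC2s depend on GATA3 and make IL-5, IL-13 and IL-4 when IL-33 or other tissue signals reach them, ILC3s make IL-17 and IL-22, and ILC1s make interferon-γ. GATA3 is also needed in lower amounts during the development of the other ILCs, and skin ILCs are known for mixed features of these classes. A fate-map reporter shows the history of a cell and not its present state, so a marked cell may or may not still use the gene behind the mark.

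The total counts per library were 23371459, 29039911 and 44098274 in reporter-positive ILCs and 19589689, 21867082 and 16844805 in reporter-negative ILCs. Mitochondrially encoded genes took 2.58% to 3.72% of the counts in reporter-positive ILCs and 3.75% to 4.12% in reporter-negative ILCs. In all, 63 of 17456 genes tested were called (0.361%), 22 higher (0.126%) and 41 lower (0.235%) in reporter-positive ILCs. A call means a Benjamini-Hochberg adjusted p under 0.05 in edgeR's quasi-likelihood test, fitted over the 10 fate-map libraries. All 63 were protein-coding genes, and their libraries did not overlap between the groups, as held for 18.2% of all genes tested. Of the 63 genes, 57 differed by at least 1 on the log2 scale and 23 by at least 2. With the 6 libraries fitted alone, 233 of 14846 genes were called (1.57%), 113 higher (0.761%) and 120 lower (0.808%), all 63 among them. Uncalled genes named below, other than Gata3 and those the naming rule gives, were chosen after their values were seen. Fewer cells of a type and less RNA per cell cannot be told apart in bulk libraries.

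The calls were sensitive to single libraries. Leaving out 1 of the 6 libraries gave 27, 2 and 14 calls without reporter-positive replicates 1, 2 and 3, and 22, 11 and 9 calls without reporter-negative replicates 1, 2 and 3. Of the 63 calls, 2 (Grap2 and Tmem176b) held in every one of these fits and 30 in none. A lane number in the names of the deposited files placed all 3 reporter-positive libraries and reporter-negative replicate 2 on lane 2, and reporter-negative replicates 1 and 3 on lane 1. With lane as a covariate 10 genes were called, 9 of them among the 63: Csf2, Ccl1, Il4, Ccdc184, Ipmk, Gcnt1, Grap2, Tmem176b and Tmem176a. Within lane 2, all 63 genes kept their sign, as did 13795 of all 17456 genes tested, with 3 reporter-positive libraries and 1 reporter-negative library. For the 63 genes this was fixed in advance, because their groups did not overlap, so it says nothing of lane. The 54 calls lost with the lane covariate had fold changes that were 0.85 to 1.22 times those without it on the log2 scale, and adjusted p from 0.0704 to 0.336.

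**Figure D1:**
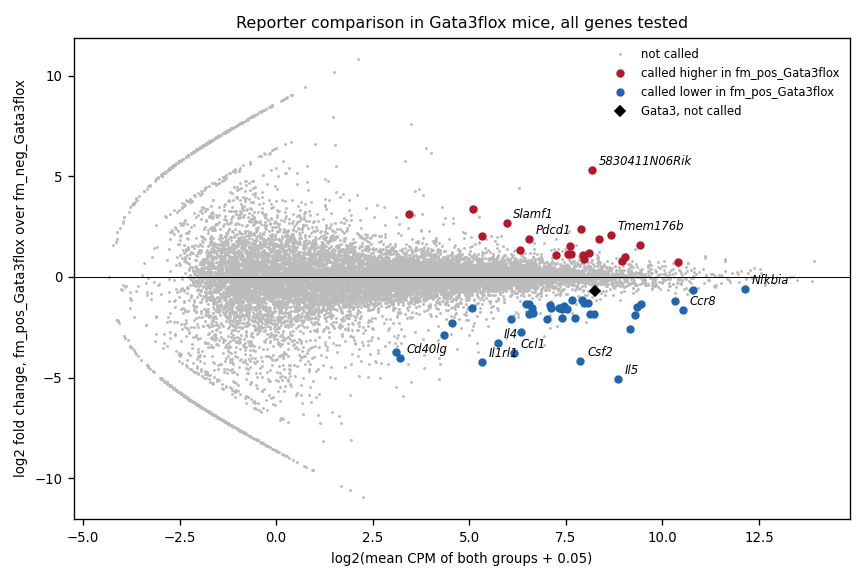
Log2 fold change of fm_pos_Gata3flox over fm_neg_Gata3flox (vertical axis) against the log2 of the mean CPM of both groups plus 0.05 (horizontal axis), 1 point for each gene tested. Called genes are coloured, the lower ones reach −5.05 at Il5 and the higher ones 5.29 at 5830411N06Rik, and Gata3 (black diamond) lies at −0.71 and was not called. The outer curves of grey points are genes with 0 counts in 1 group, whose fitted fold changes are no bounds.

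Gata3, the transcription factor on which ILC2s depend and the gene that is floxed, was counted at 154, 235 and 307 CPM (counts scaled to a common library size with TMM factors) in the 3 reporter-positive libraries. Reporter-negative libraries had 264, 430.3 and 442 CPM. The groups overlapped, and the log2 fold change was −0.71 ± 0.32 (SE) with an adjusted p of 0.642 by edgeR's quasi-likelihood test. Whole-gene counts cannot tell an intact transcript from a truncated one, and which exons were floxed is not given in the sources used here. The gene of the sort marker CD90 and genes common to leukocytes or ILCs were present in every library. Thy1, which encodes CD90, had 147, 165 and 137 CPM in reporter-positive ILCs, against 90.9, 94.2 and 96.3 CPM in reporter-negative ILCs, and the pan-leukocyte gene Ptprc had 1148, 1171 and 1095 CPM in reporter-positive ILCs, against 1176, 1251 and 1147 CPM in reporter-negative ILCs. Il7r, the IL-7 receptor subunit of ILCs, had 425, 386 and 412 CPM in reporter-positive ILCs, against 448, 586 and 637 CPM in reporter-negative ILCs, and Id2, the regulator that all ILCs share, had 6249, 6519 and 5333 CPM in reporter-positive ILCs, against 4013, 4626 and 4821 CPM in reporter-negative ILCs. None of these 4 genes was called.

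The type 2 cytokine genes were lower in reporter-positive ILCs. Il5, whose product drives eosinophils, had 6.79, 44.6 and 30.0 CPM in reporter-positive ILCs, against 499, 839 and 1358 CPM in reporter-negative ILCs. Each reporter-positive library lay at least 10 times below each reporter-negative one, and the lowest value was that of reporter-positive replicate 1. Il5 fell by 5.05 ± 0.79 (SE) on the log2 scale (adjusted p = 0.0346). Il4, which directs type 2 responses, had 9.0, 10.1 and 10.5 CPM in reporter-positive ILCs, against 73.2, 89.5 and 126 CPM in reporter-negative ILCs, a log2 fold change of −3.28 ± 0.33 (adjusted p = 0.00642). Its 3 reporter-positive values lay close together. Csf2, which encodes the growth factor GM-CSF, had 23.4, 31.6 and 19.8 CPM in reporter-positive ILCs, against 383, 461 and 491 CPM in reporter-negative ILCs (log2 fold change −4.16 ± 0.44, adjusted p = 0.00679). Il13, the cytokine of mucus production and goblet cells, had 2.63, 4.25 and 5.68 CPM in reporter-positive ILCs, against 22.9, 22.9 and 33.5 CPM in reporter-negative ILCs. Its groups did not overlap either, and it did not pass the test (log2 fold change −2.65 ± 0.52, adjusted p = 0.0848). In leave-one-out fits, calls were lost for Il5 without each of the 6 libraries, for Csf2 without reporter-positive replicate 2 or 3, and for Il4 without reporter-positive replicate 2 (edgeR, adjusted p up to 0.165). Per gene length, Il5 averaged 41 ± 27.8 TPM in reporter-positive ILCs and 1369 ± 650.2 TPM in reporter-negative ILCs, and Csf2 averaged 72.5 ± 14 TPM in reporter-positive ILCs and 1304 ± 158 TPM in reporter-negative ILCs (SD, n = 3 each).

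These cytokine genes lie within 647 kb of mouse chromosome 11 (mm10). Il4 runs from 53602982 to 53618669, Il13 from 53631324 to 53634702, Il5 from 53720794 to 53725106 and Csf2 from 54247271 to 54249667. Values were nearer 0 for 3 neighbouring genes that were looked up. Rad50, a DNA repair gene that lies between Il13 and Il5, also fell, and its groups did not overlap. It was called lower with the 6 libraries fitted alone (edgeR, adjusted p = 0.0487), the sole call among these 3 genes in that fit. In the fit of 10 libraries Rad50 had a log2 fold change of −0.81 ± 0.17 (adjusted p = 0.115). Kif3a, a kinesin motor gene just outside this stretch beside Il4, had −0.46 ± 0.42 (adjusted p = 1), and Irf1, an interferon regulatory factor gene between Il5 and Csf2, had 0.28 ± 0.22 (adjusted p = 0.981).

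The 250 bases before the RefSeq start of Il5 and Il4 (GRCm38.p6) are shown because the floxed gene encodes a factor that binds GATA motifs. The part of that binding in the differences was not tested. Il5 is on the plus strand (chr11:53720544-53720793) and Il4 on the minus strand (chr11:53618666-53618915). Capitals mark matches, on either strand, to the letters GATA with A or T before them and A or G after them.
Il5: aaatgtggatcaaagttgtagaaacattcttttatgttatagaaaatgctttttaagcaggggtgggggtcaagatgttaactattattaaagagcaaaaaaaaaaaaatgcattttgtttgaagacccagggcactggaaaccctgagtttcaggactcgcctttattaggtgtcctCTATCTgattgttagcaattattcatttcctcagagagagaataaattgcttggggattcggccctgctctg
Il4: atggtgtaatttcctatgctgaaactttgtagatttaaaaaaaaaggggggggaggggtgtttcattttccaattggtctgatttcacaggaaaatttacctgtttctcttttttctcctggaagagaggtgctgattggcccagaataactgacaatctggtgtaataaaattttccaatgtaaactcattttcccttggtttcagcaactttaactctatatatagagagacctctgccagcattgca
The Il5 window held 1 match, starting 72 bases before the start, and the Il4 window held 0. Intact mice had no floxed allele. In them Il4 had a log2 fold change of −3.36 ± 0.40 and Il5 −2.11 ± 0.85 (edgeR, adjusted p = 0.00322 and 0.215). The window of Slamf1, a receptor gene called higher, held 1 match as well, starting 130 bases before the start. Such a match was found in the same window of 10 of 32 genes called lower that had a promoter entry (31.2%), of 4 of 19 called higher (21.1%) and of 2027 of 11444 genes tested (17.7%). A match is a string of letters and does not show binding, and no match says nothing of binding elsewhere.

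Il1rl1, the IL-33 receptor by which ILC2s sense tissue damage, had 3.61, 4.89 and 3.71 CPM in reporter-positive ILCs, against 45.3, 102 and 81.6 CPM in reporter-negative ILCs. All 3 reporter-positive libraries lay below 5 CPM and no reporter-negative library lay below 45 CPM, with a log2 fold change of −4.23 ± 0.57 (adjusted p = 0.0179). In fits that left out 1 library, the call was lost for Il1rl1 without each library except reporter-negative replicate 1 (edgeR, adjusted p up to 0.106). Il1rl1 also fell in intact mice without the floxed allele, by 3.96 ± 0.68 on the log2 scale. Its promoter window (chr1:40429320-40429569, plus strand, GRCm38.p6) is shown because it held more of the same matches, 5, than the windows of Il5 and Il4.
Il1rl1: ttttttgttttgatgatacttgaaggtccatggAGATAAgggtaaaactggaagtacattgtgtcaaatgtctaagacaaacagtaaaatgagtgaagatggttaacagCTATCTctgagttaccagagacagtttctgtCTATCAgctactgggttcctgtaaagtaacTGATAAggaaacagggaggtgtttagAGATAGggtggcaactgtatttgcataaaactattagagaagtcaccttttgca
Il1rl1 was the sole called member of the 30 tested cytokine receptor genes (0 higher, 1 lower, median log2 fold change −0.16, against 0 over all genes tested). Among the receptors that did not pass, Il9r, for the mast cell and ILC2 factor IL-9, had a log2 fold change of −2.15 ± 0.39 (adjusted p = 0.0614) and Il10ra −1.76 ± 0.32 (adjusted p = 0.0614). The IL-18 receptor subunit Il18rap had −0.89 ± 0.18 (adjusted p = 0.091), and Tgfbr2, which receives TGF-β, had 114, 137 and 150.0 CPM in reporter-positive ILCs, against 65.7, 64.5 and 69.9 CPM in reporter-negative ILCs (adjusted p = 0.205). With the 6 libraries fitted alone, 2 members of the cytokine receptor list were called higher and 3 lower. In that fit Il10ra was called lower and Tgfbr2 higher (edgeR, adjusted p = 0.0168 and 0.0251).

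Of 23 tested members of the ILC2 and type 2 list, 0 were called higher and 4 lower (Il5, Il1rl1, Csf2 and Il4), and the list's median log2 fold change was −2.08. In the fit of the 6 libraries alone 1 was higher and 9 were lower. Klrg1, an inhibitory receptor of mature ILC2s, had 0.0424, 2.02 and 1.07 CPM in reporter-positive ILCs, against 28.2, 38 and 41.4 CPM in reporter-negative ILCs (adjusted p = 0.112). Calca, which encodes the neuropeptide CGRP, had 10.9, 6.95 and 34.4 CPM in reporter-positive ILCs, against 158, 173 and 189 CPM in reporter-negative ILCs (adjusted p = 0.272), and Arg1, the arginine-degrading enzyme, had 7.77, 1.01 and 2.94 CPM in reporter-positive ILCs, against 60.0, 45.3 and 36.7 CPM in reporter-negative ILCs (adjusted p = 0.0614). These 3 genes had groups that did not overlap. Other genes of ILC2s had values nearer 0. Rora, a nuclear receptor needed for ILC2s, had a log2 fold change of 0.16 ± 0.25, the IL-2 receptor gene Il2ra −0.19 ± 0.14 and the epidermal growth factor family gene Areg −0.53 ± 0.24. Icos, a costimulatory receptor of ILC2s, had a higher level in every reporter-positive library, 2717, 3105 and 2949 CPM in reporter-positive ILCs, against 1213, 1419 and 1871 CPM in reporter-negative ILCs, and was not called (log2 fold change 0.96 ± 0.23, adjusted p = 0.156).

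The type 17 side of the comparison held 2 called genes. Tmem176b and Tmem176a encode a pair of cation channels known from ILC3s and dendritic cells. Tmem176b had 699, 685 and 572 CPM in reporter-positive ILCs, against 172, 136 and 156 CPM in reporter-negative ILCs, and Tmem176a had 406, 391 and 396 CPM in reporter-positive ILCs, against 77.9, 67 and 87.7 CPM in reporter-negative ILCs. Neither gene had overlapping groups, with log2 fold changes of 2.07 ± 0.17 (adjusted p = 0.00337) and 2.36 ± 0.28 (adjusted p = 0.0104). Their models on chromosome 6 lie head to head on opposite strands and overlap by 578 bases. The counting's strand setting is not given in the sources used here, so reads of the overlap cannot be assigned to either gene with certainty. Leaving out 1 library ended the call of Tmem176a without each library except reporter-positive replicate 1 (edgeR, adjusted p up to 0.0833). The list of ILC3 and type 17 genes had 2 members called higher and 0 lower of 19 tested, with a median log2 fold change of 1.07, and 3 higher with the 6 libraries fitted alone.

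The signature cytokines of type 17 cells differed widely between the reporter-positive libraries. Il17a had 161, 33.3 and 6.9 CPM in reporter-positive ILCs, against 7.89, 2.62 and 15.4 CPM in reporter-negative ILCs (adjusted p = 0.881), and Il17f had 356, 48.9 and 40.8 CPM in reporter-positive ILCs, against 6.68, 0.643 and 13.7 CPM in reporter-negative ILCs (adjusted p = 0.459). Replicate 1 was the highest reporter-positive library for both genes. Il22 was high in reporter-positive replicate 2 alone, with 3.06, 62 and 1.55 CPM in reporter-positive ILCs, against 0.0506, 0 and 0.30 CPM in reporter-negative ILCs (adjusted p = 0.421). The IL-23 receptor gene Il23r, by which type 17 cells are activated, had 60.2, 21.5 and 12.5 CPM in reporter-positive ILCs, against 0.911, 0 and 0.42 CPM in reporter-negative ILCs and groups that did not overlap (adjusted p = 0.254). Ccr6, the chemokine receptor of ILC3s in barrier tissues, had 398, 422 and 443 CPM in reporter-positive ILCs, against 212, 174 and 289 CPM in reporter-negative ILCs (log2 fold change 0.90 ± 0.23, adjusted p = 0.20). Reporter-positive replicate 1 was also the library with the highest counts of the CD8 genes Cd8a (52.9, 19.3 and 1.18 CPM in reporter-positive ILCs, against 1.82, 1.7 and 0 CPM in reporter-negative ILCs) and Cd8b1 (63.3, 20.2 and 2.85 CPM in reporter-positive ILCs, against 1.01, 0 and 0 CPM in reporter-negative ILCs). The part of cells that express CD8 in its Il17a and Il17f counts was not tested.

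Receptors and ligands by which lymphocytes signal to each other changed in both directions. Of 28 tested costimulatory and inhibitory receptor genes, 2 were called higher and 3 lower (median log2 fold change −0.45). Slamf1, a self-binding receptor that costimulates lymphocytes, rose in reporter-positive ILCs, with 101, 114 and 110.2 CPM in reporter-positive ILCs, against 12.2, 16.1 and 22.1 CPM in reporter-negative ILCs (log2 fold change 2.69 ± 0.42, adjusted p = 0.0346). Pdcd1, which encodes the inhibitory receptor PD-1, rose as well, with 128, 104 and 205 CPM in reporter-positive ILCs, against 45.3, 36.2 and 36.8 CPM in reporter-negative ILCs (1.89 ± 0.31, adjusted p = 0.0431). Its highest value was that of reporter-positive replicate 3. Cd40lg, the CD40 ligand by which helper cells license B cells and dendritic cells, fell to 0.679, 1.19 and 1.23 CPM in reporter-positive ILCs, against 15.3, 16.9 and 19.4 CPM in reporter-negative ILCs (−4.04 ± 0.60, adjusted p = 0.0283). Cd200r1, an inhibitory receptor of activated ILC2s, fell as well, with 59.2, 68.9 and 67.1 CPM in reporter-positive ILCs, against 233, 286 and 295 CPM in reporter-negative ILCs (−2.06 ± 0.24, adjusted p = 0.00996). Tnfrsf4, which encodes the costimulatory receptor OX40, fell with 73.3, 165 and 123 CPM in reporter-positive ILCs, against 292, 546 and 472 CPM in reporter-negative ILCs (−1.86 ± 0.31, adjusted p = 0.0433). Within both groups replicate 1 was the lowest for Tnfrsf4. Cd28, the best known costimulatory receptor of T cells, did not pass, with 140.2, 150.1 and 76.6 CPM in reporter-positive ILCs, against 350.4, 312 and 262 CPM in reporter-negative ILCs (−1.33 ± 0.24, adjusted p = 0.0627). When 1 library was left out, calls were lost for Slamf1, Pdcd1, Cd40lg and Tnfrsf4 without each of the 6 libraries and for Cd200r1 without each library except reporter-negative replicate 1 (edgeR, adjusted p up to 0.237).

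Outside that list, Tnfsf9, the ligand of the costimulatory receptor 4-1BB, fell with 247, 272 and 287 CPM in reporter-positive ILCs, against 805, 826 and 1317 CPM in reporter-negative ILCs (−1.87 ± 0.21, adjusted p = 0.00914). Tnfrsf1a, the broadly expressed TNF receptor, rose with 56.5, 48.6 and 87.7 CPM in reporter-positive ILCs, against 11.4, 14 and 22.3 CPM in reporter-negative ILCs (2.02 ± 0.33, adjusted p = 0.0392). Grap2, an adaptor that couples the LAT scaffold to downstream signalling, rose with 526, 541 and 486 CPM in reporter-positive ILCs, against 119.7, 147 and 157 CPM in reporter-negative ILCs (1.87 ± 0.16, adjusted p = 0.00337). Its groups lay well apart, and its call held without any 1 library. Ptpn22, a phosphatase that restrains antigen receptor signalling, rose by 0.97 ± 0.13 (adjusted p = 0.0168), and Gpr34, a receptor for lysophosphatidylserine, rose by 1.52 ± 0.16 (adjusted p = 0.00679). The Gpr34 model overlaps Cask on the opposite strand. With 1 library left out, calls were lost for Tnfrsf1a without each of the 6 libraries, for Ptpn22 without each library except reporter-positive replicate 1, for Tnfsf9 without reporter-positive replicate 2 or 3, and for Gpr34 without reporter-positive replicate 2 or reporter-negative replicate 3 (edgeR, adjusted p up to 0.214).

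The chemokine Ccl1 and its receptor Ccr8 were both lower in reporter-positive ILCs. Ccr8, a receptor of skin-resident lymphocytes, had 546, 747 and 861 CPM in reporter-positive ILCs, against 1764, 2382 and 2566 CPM in reporter-negative ILCs (−1.64 ± 0.20, adjusted p = 0.0106). Ccl1, its ligand, had 14.8, 7.16 and 7.27 CPM in reporter-positive ILCs, against 96.7, 142 and 158 CPM in reporter-negative ILCs (−3.77 ± 0.43, adjusted p = 0.00914). Neither gene's groups overlapped. Cxcl2, a chemokine that draws neutrophils, had 105, 88.7 and 79.2 CPM in reporter-positive ILCs, against 219, 251 and 291 CPM in reporter-negative ILCs (−1.48 ± 0.25, adjusted p = 0.0431). The 14 tested chemokine ligand genes had 0 called higher and 2 lower (median −0.80), and the 21 tested receptor, homing and residency genes had 0 higher and 1 lower (median 0.10). With the 6 libraries alone 2 members of the homing list were called higher. The uncalled lymph-node homing receptor Ccr7 had 229.7, 328 and 399 CPM in reporter-positive ILCs, against 41.4, 82.2 and 75.8 CPM in reporter-negative ILCs (adjusted p = 0.12), and the sphingosine phosphate receptor S1pr1, which guides exit from tissue, had 171, 172 and 291 CPM in reporter-positive ILCs, against 85.4, 80.0 and 74.5 CPM in reporter-negative ILCs (adjusted p = 0.158). Both were higher in every reporter-positive library. Itgae, the integrin subunit CD103 of resident lymphocytes, had a log2 fold change of −0.95 ± 0.23 (adjusted p = 0.16). In leave-one-out fits, calls were lost for Cxcl2 without each of the 6 libraries, for Ccl1 without reporter-positive replicate 2 or 3 or reporter-negative replicate 2 or 3, and for Ccr8 without reporter-positive replicate 2 or reporter-negative replicate 2 or 3 (edgeR, adjusted p up to 0.21).

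Of 25 tested genes of ILC1s and NK cells, 0 were called higher and 1 lower, beside 0.361% called of all genes tested. The log2 fold change was negative for 22, and how many of all genes tested had a negative one was not counted. The list summed to 5797, 4094 and 3737 CPM in reporter-positive ILCs and 8650, 6948 and 5092 CPM in reporter-negative ILCs, which overlapped. Klrk1, the activating receptor NKG2D, was the called gene, with 392, 353 and 289 CPM in reporter-positive ILCs, against 1095, 900.4 and 872 CPM in reporter-negative ILCs (−1.47 ± 0.16, adjusted p = 0.00679). The median of the list was −0.93. Of the cytotoxic and ILC1 genes, Ncr1, the NK receptor NKp46, had 18.8, 13.6 and 16.8 CPM in reporter-positive ILCs, against 75.4, 38.4 and 25.1 CPM in reporter-negative ILCs (adjusted p = 0.384), and Tbx21, the factor T-bet, had 40.5, 25 and 46.6 CPM in reporter-positive ILCs, against 123, 80.9 and 38.1 CPM in reporter-negative ILCs (adjusted p = 0.671). The groups overlapped for Tbx21 and not for Ncr1. Ifng, for interferon-γ, had 155, 61.9 and 20.7 CPM in reporter-positive ILCs, against 245, 111 and 97.2 CPM in reporter-negative ILCs (adjusted p = 1). The granzyme gene Gzma reached its highest value in reporter-negative replicate 1, with 33.6, 3.42 and 3.31 CPM in reporter-positive ILCs, against 286, 0 and 41.6 CPM in reporter-negative ILCs (adjusted p = 0.947). In fits that left out 1 library, the call was lost for Klrk1 without reporter-positive replicate 2 (edgeR, adjusted p up to 0.0675).

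Among 18 tested genes of ILC progenitors and early lymphoid cells, 2 were called higher and 1 lower (median −0.16). Tcf7, which encodes TCF-1 and acts from the earliest ILC progenitors on, rose with 296, 254 and 272 CPM in reporter-positive ILCs, against 130.0, 150.1 and 95.1 CPM in reporter-negative ILCs (1.13 ± 0.18, adjusted p = 0.0349). The Tcf7 model has an antisense partner, A630014C17Rik. Pdcd1, described above and known from ILC progenitors, was the other member called higher. Ikzf2, the zinc finger factor Helios, fell with 79.3, 87.4 and 58.4 CPM in reporter-positive ILCs, against 189, 222 and 184 CPM in reporter-negative ILCs (−1.40 ± 0.22, adjusted p = 0.0351). Zbtb16, the factor PLZF of ILC progenitors and innate-like T cells, had 3.86, 4.97 and 4.45 CPM in reporter-positive ILCs, against 0.354, 0 and 0.54 CPM in reporter-negative ILCs and did not pass (adjusted p = 0.331). Lef1, a relative of Tcf7, had 1.61, 0.216 and 1.95 CPM in reporter-positive ILCs, against 6.98, 12.1 and 10.5 CPM in reporter-negative ILCs (adjusted p = 0.56) and so lay on the other side. Leaving out 1 library ended the calls of Tcf7, Pdcd1 and Ikzf2 without each of the 6 libraries (edgeR, adjusted p up to 0.237).

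The called members of the immediate early and NF-κB feedback list were lower in reporter-positive ILCs. Of 21 tested immediate early and NF-κB feedback genes, 0 were called higher and 2 lower (median −0.34). Myc, the growth regulator, had 84.2, 94 and 67.7 CPM in reporter-positive ILCs, against 229, 211 and 268 CPM in reporter-negative ILCs (−1.53 ± 0.20, adjusted p = 0.0169). Nfkbia, the inhibitor that NF-κB itself induces, had 3468, 3732 and 3586 CPM in reporter-positive ILCs, against 5308, 5164 and 5905 CPM in reporter-negative ILCs (−0.60 ± 0.10, adjusted p = 0.0346), the smallest of the 63 differences. Fos and Junb, which join in the activation factor AP-1, had overlapping groups, with −0.06 ± 0.20 and 0.09 ± 0.25. Atf3, a stress response factor, had groups that did not overlap, with 239, 290.4 and 358 CPM in reporter-positive ILCs, against 636, 588 and 762 CPM in reporter-negative ILCs, and was not called (adjusted p = 0.158). Socs2, which dampens cytokine receptor signalling, was the 1 called of 18 tested genes of cytokine signalling, with 136, 126 and 119.7 CPM in reporter-positive ILCs, against 247, 287 and 299 CPM in reporter-negative ILCs (−1.13 ± 0.19, adjusted p = 0.0443). Its relative Socs1 lay on the other side, with 396, 432 and 465 CPM in reporter-positive ILCs, against 200.3, 203 and 203 CPM in reporter-negative ILCs, and did not pass (adjusted p = 0.154). Dusp10, a phosphatase of stress kinases, fell by 1.86 ± 0.30 (adjusted p = 0.0375), and the transcription factor Ets2 by 1.80 ± 0.28 (adjusted p = 0.0346). When 1 library was left out, calls were lost for Myc, Nfkbia, Socs2 and Ets2 without each of the 6 libraries and for Dusp10 without each library except reporter-positive replicate 3 (edgeR, adjusted p up to 0.231).

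The highest fold change of all called genes was that of 5830411N06Rik, also named Scart2, a scavenger receptor gene known from γδ T cells. It had 462, 463 and 781 CPM in reporter-positive ILCs, against 19.7, 16.7 and 7.2 CPM in reporter-negative ILCs (5.29 ± 0.79, adjusted p = 0.0283). Every reporter-positive library exceeded every reporter-negative one more than 20 times. The gene 6430571L13Rik had 35.5, 66.4 and 85.2 CPM in reporter-positive ILCs, against 7.13, 7.44 and 3.6 CPM in reporter-negative ILCs (3.36 ± 0.45, adjusted p = 0.0179), and Lingo4, a leucine-rich repeat protein gene known from the nervous system, had 17.5, 14.4 and 26.6 CPM in reporter-positive ILCs, against 3.09, 2.43 and 1.14 CPM in reporter-negative ILCs (3.13 ± 0.52, adjusted p = 0.0431). The Lingo4 model starts just past the end of another gene model on the same strand. The part of reads that run on from that gene in the Lingo4 counts was not tested. Tuba4a, an α-tubulin, rose with 757, 977 and 1317 CPM in reporter-positive ILCs, against 318, 362 and 346 CPM in reporter-negative ILCs (1.57 ± 0.24, adjusted p = 0.0346). Ass1, the enzyme that recycles citrulline to arginine, rose by 1.18 ± 0.17 (adjusted p = 0.0234). The cell cycle inhibitor Cdkn1a, known as p21, rose by 0.75 ± 0.11 (adjusted p = 0.0313). Further genes called higher were Prelid2, Pcgf5, Anp32a, Prdx2, Celf2 and Ddx3x, with log2 fold changes of 1.36 ± 0.23, 1.14 ± 0.18, 1.10 ± 0.17, 1.09 ± 0.17, 0.88 ± 0.15 and 0.78 ± 0.12. With 1 library left out, calls were lost for 5830411N06Rik, Lingo4, Ass1 and Cdkn1a without each of the 6 libraries and for 6430571L13Rik and Tuba4a without each library except reporter-positive replicate 1 (edgeR, adjusted p up to 0.212). Every one of Prelid2, Pcgf5, Anp32a, Prdx2, Celf2 and Ddx3x lost its call without each of the 6 libraries.

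On the lower side, Rnf128, an E3 ubiquitin ligase known as GRAIL that is linked to T cell unresponsiveness, had 13.9, 13.4 and 36.5 CPM in reporter-positive ILCs, against 121, 145 and 157 CPM in reporter-negative ILCs (−2.73 ± 0.40, adjusted p = 0.0283). Ccdc184, a coiled-coil gene, had 153, 165 and 172 CPM in reporter-positive ILCs, against 857, 998 and 1109 CPM in reporter-negative ILCs (−2.60 ± 0.23, adjusted p = 0.00337). All 3 reporter-positive libraries of Ccdc184 lay within 20 CPM of each other. Gcnt1, the enzyme that branches O-glycans on lymphocyte surface proteins, had 107, 69.3 and 75.5 CPM in reporter-positive ILCs, against 308, 355 and 366 CPM in reporter-negative ILCs (−2.03 ± 0.20, adjusted p = 0.00642). Ipmk, an inositol phosphate kinase, had 44, 45 and 60.6 CPM in reporter-positive ILCs, against 169, 215 and 245 CPM in reporter-negative ILCs (−2.07 ± 0.24, adjusted p = 0.00935). Sptssa, a subunit of the enzyme that starts sphingolipid synthesis, had 127, 149 and 114 CPM in reporter-positive ILCs, against 359, 492 and 546 CPM in reporter-negative ILCs (−1.84 ± 0.20, adjusted p = 0.00679). Olfr1259, an olfactory receptor gene, was low throughout, with 1.4, 1.4 and 0.765 CPM in reporter-positive ILCs, against 13, 13.9 and 20.6 CPM in reporter-negative ILCs (−3.73 ± 0.59, adjusted p = 0.0346). In leave-one-out fits, calls were lost for Olfr1259 without each of the 6 libraries, for Rnf128 without each library except reporter-positive replicate 3, for Ipmk without reporter-positive replicate 2 or reporter-negative replicate 2 or 3, and for Ccdc184, Gcnt1 and Sptssa without reporter-positive replicate 2 (edgeR, adjusted p up to 0.194).

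The other genes called lower were Eepd1, Bbs9, Inpp4b, Tespa1, Slfn2, Rcn1, Rbfa, Nmt2, Raph1, Uhrf2, Tasp1, Cep85, Otulinl, Samsn1, Plscr1 and Ctla2a. Slfn2 is known to keep lymphocytes quiescent, Tespa1 to act in thymocyte selection, and Samsn1 to be an inhibitory adaptor. Their log2 fold changes were −1.55 ± 0.22, −1.57 ± 0.18 and −1.21 ± 0.17. Ctla2a (−0.67 ± 0.11) has a near-identical paralog, Ctla2b, among whose copies the counting could have split reads. Models of another gene overlapped those of 32 of the 63 called genes, with an opposite-strand model in 28. Bgn, the matrix proteoglycan biglycan, is mainly made by fibroblasts, and it fell with 2.04, 6.08 and 6.16 CPM in reporter-positive ILCs, against 25.3, 30.8 and 51.6 CPM in reporter-negative ILCs (−2.91 ± 0.43, adjusted p = 0.0283). The summed CPM of the fibroblast marker list moved with it, at 144, 212 and 346 in reporter-positive ILCs and 419, 1107 and 1087 in reporter-negative ILCs. The part of fibroblast RNA in the Bgn counts was not tested. In fits that left out 1 library, the call was lost for Bgn without each library except reporter-positive replicate 1 (edgeR, adjusted p up to 0.12).

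**Figure D2:**
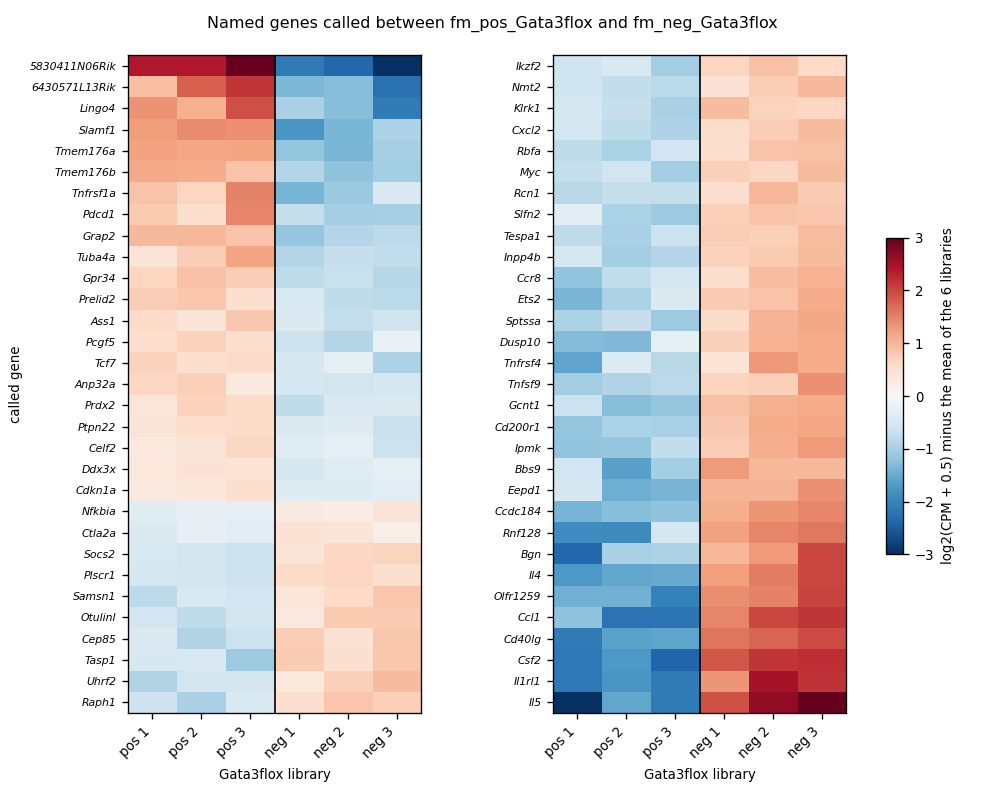
Log2(CPM + 0.5) of the 62 called genes named here, minus each gene's mean over the 6 libraries (colour, from −3 to 3, with values past either end drawn in its end colour), with genes in rows by fold change and libraries in columns. The 3 fm_pos_Gata3flox columns (left) and the 3 fm_neg_Gata3flox columns (right) fall on opposite sides for all 62 genes, from 5830411N06Rik at 5.29 to Il5 at −5.05. The genes were called in these same 6 libraries, so the separation comes with their choice and is not a further test.

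Lists of other functions held no called member. Of 29 tested signals to epithelium and hair follicle, 0 were called (median −0.44), and 0 higher and 2 lower with the 6 libraries alone. The follicle regulator Bmp2 had 15.1, 25.4 and 36.7 CPM in reporter-positive ILCs, against 83.6, 73.8 and 85.5 CPM in reporter-negative ILCs (adjusted p = 0.131), and the IL-6 family cytokine Lif had 8.27, 6.8 and 7.99 CPM in reporter-positive ILCs, against 18.8, 35.2 and 59.8 CPM in reporter-negative ILCs (adjusted p = 0.219). Both had groups that did not overlap. The 20 tested cell cycle genes had a median of −0.37 and the 20 of glycolysis and hypoxia 0.11, with 0 called in either. Mki67, the proliferation marker, had 68.3, 22.9 and 15.4 CPM in reporter-positive ILCs, against 109.8, 36.9 and 28.6 CPM in reporter-negative ILCs (adjusted p = 1). The 14 eicosanoid genes had a median of −0.87, with 0 called and 2 lower with the 6 libraries alone. The prostacyclin receptor Ptgir had 20.3, 23.5 and 30.6 CPM in reporter-positive ILCs, against 51.1, 84.1 and 74.7 CPM in reporter-negative ILCs (adjusted p = 0.153), and the leukotriene B4 receptor Ltb4r1 had 18.7, 14 and 15.4 CPM in reporter-positive ILCs, against 35.2, 38.4 and 42.7 CPM in reporter-negative ILCs (adjusted p = 0.0911). The 21 lipid genes had a median of 0.18 with 0 called, and 1 higher and 1 lower with the 6 libraries alone. The triglyceride synthesis genes Dgat1 and Dgat2 lay on opposite sides, Dgat1 with 612, 834 and 1249 CPM in reporter-positive ILCs, against 242, 362 and 431 CPM in reporter-negative ILCs (adjusted p = 0.375) and Dgat2 with 19.7, 26.2 and 39.3 CPM in reporter-positive ILCs, against 160.3, 238 and 251 CPM in reporter-negative ILCs (adjusted p = 0.108). The 17 survival genes had a median of 0.00, the 18 interferon response genes 0.15, the 14 Notch pathway genes 0.12 and the 11 genes of MHC class II presentation 0.75, each with 0 called. With the 6 libraries alone, 1 Notch pathway gene was called lower and 1 gene of MHC class II presentation higher.

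**Figure D3:**
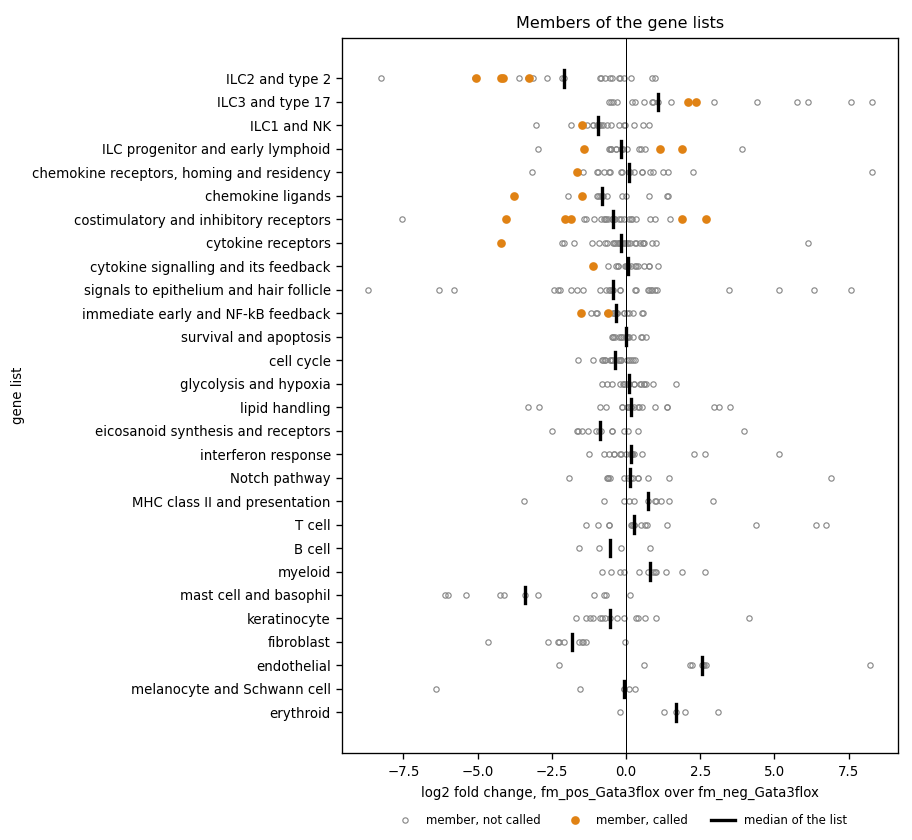
Log2 fold change of fm_pos_Gata3flox over fm_neg_Gata3flox (horizontal axis) for the tested members of 28 gene lists (vertical axis), with called members filled and the list's median as a bar. The median is −2.08 for ILC2 and type 2 genes and 1.07 for ILC3 and type 17 genes, and far points on either side are mostly genes with few counts, whose fitted values are no bounds.

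Markers of other cells were counted in both groups. T cell transcripts were counted in every library although the sort removed lineage-positive cells. Cd3g, a subunit of the T cell receptor complex that some ILCs also express, had 427, 289 and 188 CPM in reporter-positive ILCs, against 324, 298 and 188 CPM in reporter-negative ILCs, and Trac, the constant segment of the T cell receptor α chain, had 73.7, 49.7 and 44.3 CPM in reporter-positive ILCs, against 38, 32.1 and 37.1 CPM in reporter-negative ILCs. Neither was called, and the 16 tested T cell genes had 0 called (median 0.27). They summed to 3026, 2431 and 2546 CPM in reporter-positive ILCs and 2375, 2186 and 2055 CPM in reporter-negative ILCs. The CD3 subunit genes Cd3e and Cd3d had negative differences with overlapping groups and were not called, Cd3e with 19.6, 5.72 and 1.41 CPM in reporter-positive ILCs, against 28.1, 29.9 and 10.4 CPM in reporter-negative ILCs (log2 fold change −1.36 ± 0.87) and Cd3d with 75, 27.8 and 8.62 CPM in reporter-positive ILCs, against 70.3, 68.9 and 28 CPM in reporter-negative ILCs (log2 fold change −0.59 ± 0.74). Cd4 had 137, 41 and 5.0 counts in reporter-positive ILCs, against 0, 0 and 1.0 counts in reporter-negative ILCs. Fibroblast markers had 0 called of 10 tested and a negative log2 fold change in all 10 (median −1.83). The collagen-binding proteoglycan gene Dcn had 70.2, 114 and 82.3 CPM in reporter-positive ILCs, against 291, 554 and 434 CPM in reporter-negative ILCs (adjusted p = 0.0951). Keratinocyte markers summed to 690, 662 and 792 CPM in reporter-positive ILCs and 796, 657 and 606 CPM in reporter-negative ILCs, with 0 called of 15. Endothelial markers summed to 48.1, 37.1 and 70.3 CPM in reporter-positive ILCs and 8.37, 8.92 and 12.1 CPM in reporter-negative ILCs, with 0 called of 9 (median 2.57). Mast cell and basophil markers summed to 83.1, 105 and 122 CPM in reporter-positive ILCs and 139, 172 and 348 CPM in reporter-negative ILCs, with 0 called of 11. Among these, Fcer1a, Ms4a2 and Mrgprb2 were at 0 counts in all 3 reporter-positive libraries. The mast cell protease Cma1 was high in reporter-negative replicate 3, with 2.63, 0.90 and 0.927 CPM in reporter-positive ILCs, against 3.29, 1.01 and 43.2 CPM in reporter-negative ILCs. Myeloid, B cell, and melanocyte and Schwann cell markers had 0 called of 12, 4 and 6. Haemoglobin was high in reporter-positive replicate 2, where Hba-a1 reached 14.9, 679.6 and 16.6 CPM in reporter-positive ILCs, against 122, 40.0 and 132 CPM in reporter-negative ILCs, and the 5 erythroid genes had 0 called. With the 6 libraries alone, keratinocyte markers had 1 called higher and 1 lower, fibroblast markers 1 lower and endothelial markers 1 higher. The part of all these other cells in the called differences was not tested.

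The called genes were also looked at in intact mice. Of the 63 called genes, 48 had the same sign in intact mice and 17 were also called there, where 2.74% of genes tested were called, 0.624% higher and 2.11% lower. How many of all genes tested shared a sign was not counted, so the 48 cannot be weighed. The direction was the same for 16 of the 17, of which 15 are named here. Il4 fell by 3.28 ± 0.33 in Gata3flox mice and by 3.36 ± 0.40 in intact mice, and Il1rl1 by 4.23 ± 0.57 in Gata3flox mice and by 3.96 ± 0.68 in intact mice. Csf2, Ccl1, Cd200r1, Rnf128, Bgn, Myc, Otulinl and Plscr1 were also lower in both. Summed fibroblast markers reached 8677 and 6230 CPM in intact fm_neg, against 71.6 and 187 CPM in intact fm_pos. Bgn had 250 and 303 CPM in intact fm_neg, against 7.79 and 6.40 CPM in intact fm_pos. The part of fibroblast RNA in the intact differences was not tested. Tmem176a, Tmem176b, Tcf7, Lingo4 and 6430571L13Rik were higher in both. None of these 15 genes had a called difference between the comparisons.

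The interaction tested whether the reporter difference itself differed between Gata3flox and intact mice. It called 176 of 17456 genes (1.01%), 144 with a higher (0.825%) and 32 with a lower value (0.183%) in Gata3flox mice, and 13 of the 63 genes were among them. Cd40lg was the 1 gene called in opposite directions. It had 0.679, 1.19 and 1.23 CPM in fm_pos_Gata3flox and 15.3, 16.9 and 19.4 CPM in fm_neg_Gata3flox, but 155 and 27.9 CPM in fm_pos and 9.32 and 8.34 CPM in fm_neg of intact mice. The interaction was −7.41 ± 0.94 on the log2 scale (adjusted p = 0.00856). Ccr8 and Klrk1 were lower in fm_pos_Gata3flox than in the other 3 groups. Ccr8 had 2071 and 2627 CPM in fm_pos and 2067 and 2169.7 CPM in fm_neg, beside the Gata3flox values given above (interaction −1.79 ± 0.31, adjusted p = 0.0333). For Klrk1 the intact libraries had 618 and 672 CPM in fm_pos and 616 and 742 CPM in fm_neg (interaction −1.40 ± 0.25, adjusted p = 0.0351). Sptssa, Tespa1, Slfn2, Uhrf2, Tasp1, Ccdc184, Ctla2a and Olfr1259 also had a negative interaction. Gpr34 and Pdcd1 had a positive one. Gpr34 had 268, 315 and 287 CPM in reporter-positive ILCs, against 101, 107 and 94.7 CPM in reporter-negative ILCs, with 112 and 150.2 CPM in fm_pos and 143 and 133 CPM in fm_neg (interaction 1.60 ± 0.25, adjusted p = 0.0206). The intact groups overlapped for Gpr34. Pdcd1 had 67.9 and 98.8 CPM in fm_pos and 92 and 166 CPM in fm_neg (interaction 2.51 ± 0.49, adjusted p = 0.0461). Interaction calls were lost for Pdcd1 without each of the 6 Gata3flox libraries, for Klrk1 without 5 of them, and for Ccr8 and Gpr34 without 4, whereas that of Cd40lg held in these 6 fits.

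The 5 genes with the smallest interaction p were Apoe, Ptges, Cav1, Ifitm3 and Gpnmb, and none was called in Gata3flox mice. Apoe, a lipid carrier, had 94.4, 68.6 and 102 CPM in fm_pos_Gata3flox and 171, 149 and 172 CPM in fm_neg_Gata3flox, against 35.3 and 38 CPM in fm_pos and 944 and 1242 CPM in fm_neg. The high values were those of both intact fm_neg libraries. Ptges, a prostaglandin synthase, had 5.18, 9.1 and 7.48 CPM in fm_pos_Gata3flox and 16.5, 7.16 and 17.1 CPM in fm_neg_Gata3flox, against 0 and 0.0251 CPM in fm_pos and 116 and 102 CPM in fm_neg. The same intact fm_neg libraries had the highest summed fibroblast markers of the 10 libraries, 8677 and 6230.0 CPM, and of keratinocyte markers, 4942 and 2629 CPM. Intact fm_pos libraries had 71.6 and 187 CPM of fibroblast markers and 489 and 587 CPM of keratinocyte markers. The part of these cells in the interaction was not tested. Without both intact fm_neg libraries in the fit, a fit added once the results were known, 71 genes were called in Gata3flox mice, 56 of them among the 63.

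**Figure D4:**
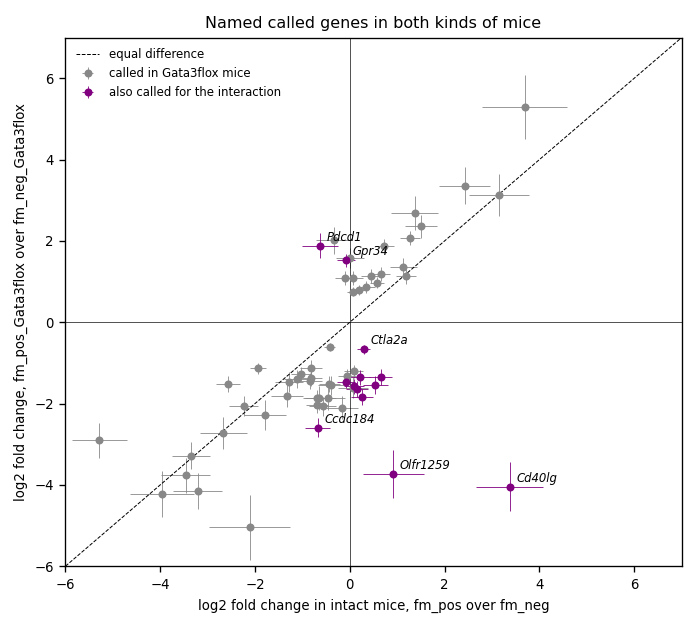
Log2 fold change in Gata3flox mice (vertical axis) against that in intact mice (horizontal axis) for the 62 called genes named here, with bars of 1 SE and a dashed line where the differences are equal. Genes called for the interaction are purple, and Cd40lg, at −4.04 in Gata3flox and 3.37 in intact mice, is the farthest from the line.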

How the data were processed

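Bulk RNA-seq of sorted skin ILCs was used from 10 fate-map libraries, 6 of them in the main comparison. Per the submitters' processing notes, HISAT2 2.1.0 aligned the reads to mm10 and featureCounts, a tool of Subread, assigned them to genes. The authors deposited raw counts, whole numbers for each gene without any scaling. The annotation release, the strand setting and the treatment of reads that fit several genes are not given in the sources used here. Symbols, coordinates and neighbouring models came from GENCODE vM21, which matched 54409 of 54446 gene IDs.

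The analysis used edgeR 4.0.16 under R 4.3.3. After filterByExpr and TMM scaling, 1 quasi-likelihood model with 4 groups was fitted to the 10 libraries, which left 6 residual degrees of freedom. The reporter difference in Gata3flox mice and its interaction with the floxed label were contrasts of that fit. P-values were adjusted by the Benjamini-Hochberg method over the 17456 genes tested. CPM values were scaled with TMM factors, except sums over gene lists, which used total counts over all members. TPM values used the gene lengths in the files. The fit was tested on simulated data with known fold changes and a spread taken from the fit. The simulation held no lane effect and no RNA of other cells, so it says nothing of how these bear on the calls. Replicates differed by more than counting noise in every pair, so each library was counted as 1 sample. The alternatives were DESeq2 1.42.0, other scalings and filters, the 6 libraries alone, lane, a replicate block and leaving out libraries. The lane within which values were compared used log2(CPM + 0.5).

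Every called gene could be named. Values in every library were given for called members of the gene lists, and for the 10 highest and 10 lowest fold changes among calls that reached 10 CPM on average. Values followed for members with the smallest p of each list, and for the 5 interaction genes with the smallest p. The comparison, the 29 gene lists and the naming rule were chosen with earlier results of these data known. The sex-linked list is a label check and held 0 called genes. Of the 63 called genes, 1 is not reported here. Promoter sequences were taken from RefSeq (GRCm38.p6), where 11444 of the genes tested had an entry. Total counts of 16844805 to 44098274 per library set the precision of low genes, and the spread between libraries that of the others.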

Additional observations from a re-analysis of the deposited data

Results flagged for a closer look

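The reporter difference itself differed between Gata3flox and intact mice, by the interaction test, for the following named genes (edgeR quasi-likelihood, Benjamini-Hochberg adjusted p from 0.00146 to 0.0461). Values are the log2 fold change of fm_pos_Gata3flox over fm_neg_Gata3flox minus that of fm_pos over fm_neg. The interaction was positive for Apoe (4.01), Ptges (11.6), Cav1 (11.03), Ifitm3 (4.90) and Gpnmb (8.84), all of them high in both intact fm_neg libraries. Ptges had 0 counts in 1 intact fm_pos library, and the fitted values of Ptges, Cav1 and Gpnmb rest on few counts there and are no bounds. The interaction was also positive for Gpr34 (1.60) and Pdcd1 (2.51), which were higher in reporter-positive than in reporter-negative ILCs of Gata3flox mice. It was negative for Cd40lg (−7.41), Olfr1259 (−4.65), Sptssa (−2.09), Slfn2 (−2.09), Tasp1 (−2.00), Ccdc184 (−1.92), Ccr8 (−1.79), Tespa1 (−1.66), Uhrf2 (−1.57), Klrk1 (−1.40) and Ctla2a (−0.96). The genes with a negative interaction were lower in reporter-positive than in reporter-negative ILCs of Gata3flox mice. The intact groups held 2 libraries each, and their lanes were not balanced against the Gata3flox groups. With lane as a covariate 73 interaction genes were called in place of 176, and 10 of the 18 named interactions lost their call (Ccdc184, Ccr8, Ctla2a, Klrk1, Olfr1259, Pdcd1, Slfn2, Tasp1, Tespa1 and Uhrf2), with values 0.981 to 1.019 times those given here. Leaving out 1 Gata3flox library ended 7 to 12 of the 18 calls, and 6 (Apoe, Cav1, Cd40lg, Gpnmb, Ifitm3 and Ptges) held in each of these 6 fits. With the replicate number as a block, 12 of the 18 were lost and those of Apoe, Ptges, Cav1, Ifitm3, Gpnmb and Ccr8 held.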

How the results depend on the processing

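DESeq2 called 419 genes in place of 63, leaving out the filter on low counts 321, a floor of 5 CPM on average 113, the 6 libraries alone 233 and lane as a covariate 10. All 63 stayed called under the first 4 of these. Of named genes not called, 37 passed with DESeq2, 40 without the filter, 12 with the floor and 28 with the 6 libraries. The count of all called genes was 61 with RLE factors, 76 with total count scaling and 71 without both intact fm_neg libraries. The interaction count of 176 was 1158 with DESeq2, 773 with no filter, 73 with lane and 54 to 89 with 1 library left out, and 181 to 211 with the other scalings and the stricter filter. Leaving out 1 library gave 2 to 27 calls in the main comparison. With the replicate number as a block, 31 genes were called in the main comparison and 26 for the interaction. Libraries that shared a number had correlated deviations of 0.0975, 0.0169 and 0.04, and not every library correlated best with its own number, so the numbers were not taken to pair the samples. No named called gene changed its sign under any of these alternatives. The cause of these differences was not tested. Depth limits the genes below about 1 CPM, where a library of 16844805 counts holds few reads.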

Other observations

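The most abundant transcript per gene length in both groups was Fth1, the heavy chain of the iron store ferritin, at 53830 ± 3412 TPM in reporter-positive ILCs and 30800 ± 2545 TPM in reporter-negative ILCs (SD, n = 3 each), and it was not called (edgeR, adjusted p = 0.0717). The antigen presentation subunit B2m followed, at 27310 ± 3864 TPM in reporter-positive ILCs and 27260 ± 2390 TPM in reporter-negative ILCs. Tcrg-C4, a constant segment of the T cell receptor γ chain, was counted at 218, 292 and 253 CPM in reporter-positive ILCs and 110, 123 and 109 CPM in reporter-negative ILCs, although the sort removed γδ T cells, and was not called (edgeR, adjusted p = 0.0533). It was chosen after its values were seen, and reads of the γ constant segments can be shared between near-identical copies. Sox13, a factor of γδ T cells that make IL-17, was at 1.82, 0.288 and 1.51 CPM in reporter-positive ILCs and at 0 in all 3 reporter-negative libraries (adjusted p = 0.378). Trdc, the constant segment of the δ chain, had a negative difference and overlapping groups, at 63.0, 29.04 and 17.5 CPM in reporter-positive ILCs and 67.9, 57.2 and 38.1 CPM in reporter-negative ILCs (log2 fold change −0.58, adjusted p = 0.943). Cd163l1, a scavenger receptor gene known from γδ T cells, also had overlapping groups, with 52.3, 27.7 and 62.6 CPM in reporter-positive ILCs and 25.3, 36.5 and 13.2 CPM in reporter-negative ILCs (adjusted p = 0.726). Il2 had 33.6, 36.2 and 34.6 CPM in reporter-positive ILCs and 67.5, 67.3 and 81.9 CPM in reporter-negative ILCs and was not called (adjusted p = 0.0732). With the 6 libraries fitted alone, Fth1, Tcrg-C4 and Il2 were called (edgeR, adjusted p = 0.00954, 0.0122 and 0.0262), and Trdc and Cd163l1 were not.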
